A study of Homo sapiens with 18 samples.

Results

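The genes described here encode the subunits of the proteasome and the proteins that assemble or regulate it. They were chosen by symbol, as every listed gene whose name is PSM followed by A, B, C, D, E, F or G and a number, with a mean of at least 10 TMM-normalized counts in both deposited tables. Of 26485 listed genes, 48 carried such a name and 46 were kept. PSMA8 and PSMB11, the subunits of the testis and thymus proteasome, were listed at 0 in all 18 libraries and were left out. The lowest genes that were kept were PSMB9, with table means of 21.3 and 20.2, PSMB10, with 32.0 and 20.8, and PSMG4, with 22.0 and 23.2.

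The proteasome degrades proteins that carry ubiquitin chains. Its 20S core is a barrel of stacked rings, with alpha subunits outside and beta subunits, including the proteases, inside. The 19S regulatory particle caps the barrel, where a base of ATPases unfolds the substrate and a lid removes the ubiquitin. Interferon can replace the catalytic beta subunits by immunoproteasome subunits, which shape the peptides shown on MHC class I. In mammalian cells the transcription factor NRF1, encoded by NFE2L1, raises proteasome genes together when degradation is impaired. Pancreatic tissue makes and secretes much protein, and cells that do so rely on the proteasome to clear misfolded chains. The 46 genes comprised 7 alpha and 7 standard beta subunits of the core, 3 immunoproteasome subunits, 6 ATPases, 3 other base subunits and 8 lid subunits of the 19S particle, 5 activators or inhibitors, and 7 assembly chaperones.

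All RNA came from PANC-1, an established human line of pancreatic ductal adenocarcinoma, taken 72 h after the start of treatment. In 1 table, cells had been transfected either with Control siRNA or with one of a pair of siRNAs, named PKR siRNA 1 and PKR siRNA 2, against EIF2AK2, the gene of the double-stranded RNA-activated kinase PKR. In the other, cells had received the solvent DMSO or the PKR inhibitor C16 at 400 nM or 800 nM. Each group held 3 libraries, for 18 in all, and the tables were normalized separately, so values were compared only within a table. As a single line was used, the groups model PKR loss or inhibition in these cells alone. Nothing in the sources used here says that the 3 libraries of a group came from separate cultures, so p-values measure the spread between these libraries, which may be technical.

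The depth was modest. Reads on genes numbered 1512940 to 1873906 per library in the siRNA table and 894145 to 1474308 in the C16 table. EIF2AK2, the targeted gene, stood at 95.5, 93.5 and 103 TMM-normalized counts in the Control siRNA libraries. It stood at 10.00, 13.6 and 9.65 after PKR siRNA 1, a log2 fold change of -3.04, and at 7.96, 8.58 and 9.40 after PKR siRNA 2, a log2 fold change of -3.35. Every PKR siRNA library thus lay below every Control siRNA library. Between the 2 PKR siRNAs the direct difference was -0.31 (interval -0.80 to 0.17, limma, adjusted p = 0.28). All 3 PKR siRNA 2 values lay below all 3 PKR siRNA 1 values, as in 30.9% of all tested genes. The test therefore does not show that the knockdowns were equal. With C16, which acts on the protein, EIF2AK2 mRNA gave log2 fold changes of -0.22 at 400 nM (limma, adjusted p = 0.35) and 0.01 at 800 nM (adjusted p = 0.974). All 6 epithelial markers were detected in every group. The 3 leukocyte markers summed to at most 4.86 in any library, with 2 of them at 0 in every library of each group, and the 3 endothelial markers to at most 1.07. The epithelial sum moved with treatment: it was 5358 to 5451 in Control siRNA, 3052 to 3280 in PKR siRNA 1 and 9586 to 10233 in PKR siRNA 2 libraries, and 7171 to 7572 in DMSO, 6033 to 6544 at 400 nM and 5172 to 5685 at 800 nM C16. KRT8, KRT18 and KRT19 carried most of this sum, and other members differed from it. EPCAM fell by 3.14 on the log2 scale with PKR siRNA 2 and rose by 0.74 at 800 nM C16 (adjusted p = 8.03e-20 and 0.00866), and KRT7 fell by 1.86 with PKR siRNA 2 (adjusted p = 1.62e-05). Of 3 fibroblast markers, DCN was at 0 in every library, LUM reached at most 1.90 and COL1A1 made up the rest of their sum. This sum was 82.1 to 109 in Control siRNA, 21.8 to 28.9 in PKR siRNA 1 and 106 to 115 in PKR siRNA 2 libraries, and 130.2 to 161 in DMSO, 103 to 160.0 at 400 nM and 58.2 to 92.8 at 800 nM C16. The part of these markers in the results below was not tested.

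Levels were compared between genes per kilobase of exon. In Control siRNA, the core and 19S genes had the higher medians, of 227 TMM-normalized counts per kb over the 7 standard beta subunits, 170 over the 7 alpha subunits and 199 over the 5 ATPases other than PSMC4. The assembly chaperones had a median of 41.4 and the immunoproteasome subunits one of 32.3. In DMSO the medians were 143 for the beta subunits, 36.8 for the assembly chaperones and 18.1 for the immunoproteasome subunits. The spread within a list was wide, for the beta subunits from 46.6 to 494 in Control siRNA.

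One gene stood far apart from the rest. PSMC4, an ATPase of the base, had 4831, 4754 and 4875 TMM-normalized counts in the Control siRNA libraries and 2427, 2216 and 2329 in the DMSO libraries. Per kilobase this was 2518 and 1214, which is 12.6 and 11.0 times the median of the other ATPases. The ATPase ring holds each of these subunits once. The PSMC4 gene lies at chr19:39971005-39981764 on the plus strand (hg38, as the tables give it). Of 20 tested genes within 500000 bases of it on either side, 7 were among the top 10% of all tested genes per kilobase in Control siRNA, and 3 of these, FBL, SUPT5H and TIMM50, were among the top 1%. The 7 include the short gene MIR641, which lies within the span of AKT2, also among the 7, so these are not separate loci. DNA copy number was not measured in these files. Sums over the genes are therefore given with and without PSMC4.

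**Figure D1:**
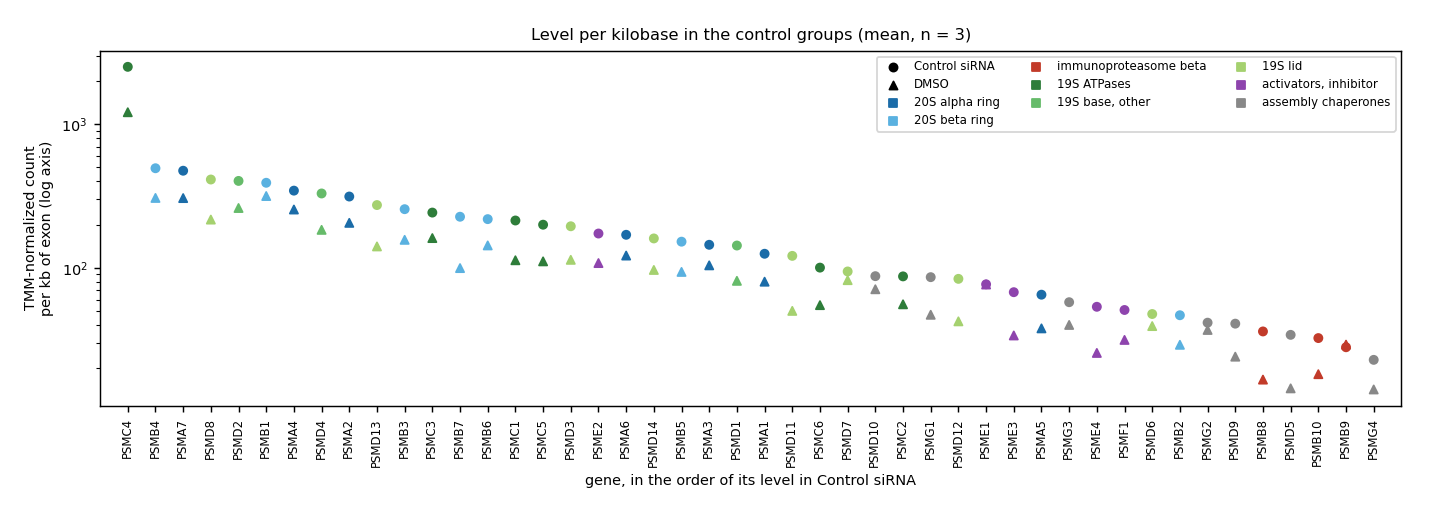
TMM-normalized counts per kilobase of exon on a log axis, for each of the 46 genes in the order of its level in Control siRNA, with circles for the mean of the 3 Control siRNA libraries and triangles for the mean of the 3 DMSO libraries, and colours for the role. PSMC4 stands at 2518 and 1214, far above the other ATPases, while immunoproteasome and assembly genes lie at the low end.

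The first comparison asked whether the proteasome genes move when PKR mRNA is lowered. With PKR siRNA 1, 28 of the 46 genes rose and 5 fell at an adjusted p under 0.05, where 21.1% of all 10593 tested genes rose and 23.9% fell. The median log2 fold change over the 46 genes was 0.33, against -0.01 over all tested genes. Of the 31 subunits of the 20S core and 19S particle, 27 rose and 2 fell, with a median of 0.43. Of the other 15 genes, 1 rose and 3 fell, with a median of -0.01. As these are bulk libraries, a change in the share of cells with a given state and a change in RNA per cell cannot be told apart. When a fold change over 1.5 was also required, 9 genes rose (PSMB2, PSMB3, PSMB4, PSMC4, PSMC5, PSMD3, PSMD4, PSMD12 and PSMD13) and 0 fell, where 8.53% of all genes rose and 12.6% fell. The 5 falls called by limma were smaller than that.

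**Figure D2:**
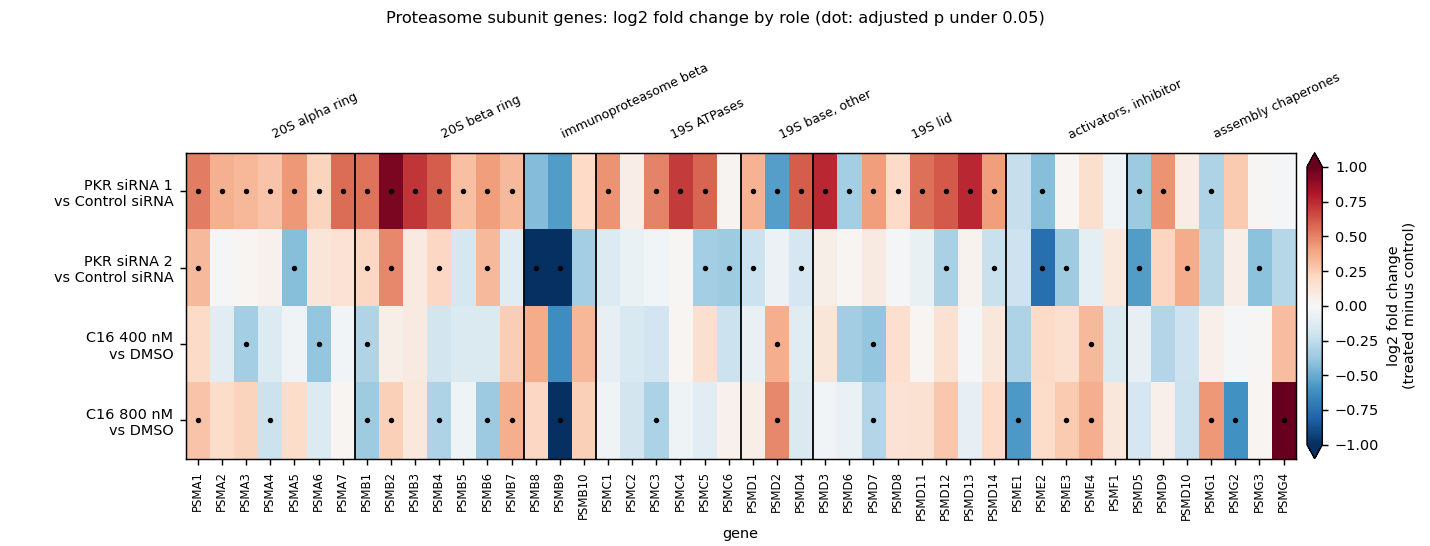
Log2 fold change of each of the 46 genes (columns, grouped by role) in the 4 comparisons with a control group (rows), in red where higher and blue where lower than control, with colours saturated at 1 and -1 and a dot where the adjusted p was under 0.05. In the row of PKR siRNA 1 all 14 core subunits carry a dot and are red, against 6, 3 and 7 core subunits with a dot, in either colour, in the rows of PKR siRNA 2, 400 nM and 800 nM C16.

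All 14 core subunits rose with PKR siRNA 1, and in each the 3 PKR siRNA 1 libraries lay above the 3 Control siRNA libraries, as did 24.5% of all tested genes. PSMB2, a structural beta subunit, had the largest rise of the 46. It stood at 218, 227 and 233 TMM-normalized counts in the Control siRNA libraries and at 425, 439.9 and 437 in the PKR siRNA 1 libraries. The groups did not overlap, and the log2 fold change was 0.94 ± 0.07 (SE, n = 3 per group; limma, adjusted p = 1.77e-18). The 3 proteases of the standard core had smaller rises. PSMB5, the chymotrypsin-like protease that bortezomib blocks, went from 238, 215 and 209.5 to 279.9, 297 and 242, a log2 fold change of 0.30 ± 0.09 (SE, n = 3 per group; limma, adjusted p = 0.00295). PSMB6, the caspase-like protease, rose by 0.42 ± 0.09 on the log2 scale (SE, adjusted p = 4.50e-05). PSMB7, the trypsin-like protease, rose by 0.33 ± 0.08 (adjusted p = 7.73e-04), but 38.3% of its exon length lies under LOC100129034 on the opposite strand and the strand setting of the counting is not given in the sources used here. The log2 fold changes of the 14 ran from 0.22 to 0.94.

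In the 19S particle, 13 of 17 genes rose and 2 fell with PKR siRNA 1. The largest rises were in the lid. PSMD13 went from 518, 520.0 and 474 TMM-normalized counts to 883, 834 and 839, and the groups did not overlap. Its log2 fold change was 0.76 ± 0.06 (SE, n = 3 per group; limma, adjusted p = 2.90e-18). PSMD3, another structural lid subunit, went from 429, 417 and 430.4 to 669.8, 766 and 723, a log2 fold change of 0.75 ± 0.06 (SE, n = 3 per group; limma, adjusted p = 6.47e-17). PSMD14, the lid enzyme that cuts ubiquitin chains from the substrate, stood at 257, 271 and 297 with Control siRNA and 385, 344 and 374 with PKR siRNA 1, a log2 fold change of 0.42 ± 0.08 (SE, n = 3 per group; limma, adjusted p = 5.73e-06). The already high PSMC4 rose further, from 4831, 4754 and 4875 to 7794, 7906 and 7737, a log2 fold change of 0.70 ± 0.04 (SE, n = 3 per group; limma, adjusted p = 5.62e-29). Among its 20 tested neighbours, 8 rose and 3 fell, with a median of 0.10, where 21.1% of all tested genes rose and 23.9% fell. The tested neighbours had medians of 0.34 with PKR siRNA 2 and -0.24 at 800 nM C16, where PSMC4 gave 0.01 and -0.04. Whether PSMC4 moves with its locus was not tested. With PKR siRNA 1, the ATPases PSMC2 and PSMC6 had log2 fold changes of 0.07 and 0.02 (adjusted p = 0.527 and 0.872), with intervals of -0.09 to 0.23 and -0.18 to 0.23.

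PSMD2 fell while most of the particle rose. This base subunit, which docks the shuttle proteins that bring ubiquitinated substrates, stood at 1285, 1312 and 1231 TMM-normalized counts with Control siRNA and fell to 848, 919 and 843 with PKR siRNA 1. All 3 treated libraries lay below all 3 controls, and the log2 fold change was -0.55 ± 0.05 (SE, n = 3 per group; limma, adjusted p = 2.27e-15). Its partners in the base, PSMD1 and PSMD4, rose by 0.34 and 0.61 (adjusted p = 5.60e-06 and 9.09e-13). The lid subunit PSMD6 was the other 19S gene that fell, by 0.34 ± 0.13 on the log2 scale (adjusted p = 0.0311). Its call was lost without Control siRNA replicate 2 (-0.32), Control siRNA replicate 3 (-0.32), PKR siRNA 1 replicate 2 (-0.27) or PKR siRNA 1 replicate 3 (-0.34).

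Of the 3 immunoproteasome genes, 0 passed the limma test with PKR siRNA 1, and 1, PSMB8, had an unadjusted p under 0.05. PSMB8 gave a log2 fold change of -0.43 ± 0.19 (SE, n = 3 per group; limma, adjusted p = 0.0504), PSMB9 one of -0.56 (adjusted p = 0.102) and PSMB10 one of 0.20 (adjusted p = 0.468). The edgeR quasi-likelihood test on the recovered reads called PSMB8 and PSMB9 lower, at -0.43 and -0.60 (adjusted p = 0.0224 and 0.0384). PSME2, a subunit of the interferon-inducible activator ring, fell from 159, 124 and 148 TMM-normalized counts to 116, 101 and 103, a log2 fold change of -0.42 ± 0.12 (SE, n = 3 per group; limma, adjusted p = 0.00197). Of the assembly chaperones, PSMD9 rose by 0.45 (adjusted p = 9.56e-04), while PSMD5, which holds part of the ATPase ring during assembly, and PSMG1, of a chaperone pair for the alpha ring, fell by 0.36 and 0.31 (adjusted p = 0.0167 and 0.0499). The PSMD5 values of 126, 98.8 and 129.9 in Control siRNA and 87.8, 78.0 and 111 in PKR siRNA 1 libraries overlapped, as did those of PSMG1. The call on PSMD5 was lost without Control siRNA replicate 1 (-0.31), Control siRNA replicate 3 (-0.29), PKR siRNA 1 replicate 1 (-0.33) or PKR siRNA 1 replicate 2 (-0.25). That on PSMG1 was lost without Control siRNA replicate 1 (-0.27), Control siRNA replicate 2 (-0.34), Control siRNA replicate 3 (-0.31), PKR siRNA 1 replicate 1 (-0.33) or PKR siRNA 1 replicate 2 (-0.17). Likewise, the count of 5 genes that fell dropped to 2 without Control siRNA replicate 3 or PKR siRNA 1 replicate 2, and to 3 without Control siRNA replicate 1, Control siRNA replicate 2 or PKR siRNA 1 replicate 1.

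PKR siRNA 2, which targets the same mRNA, was compared with the same controls. With it, 6 of the 46 genes rose and 13 fell, against 22.1% and 25.2% of all tested genes, with a median log2 fold change of -0.06 (all genes -0.01). Both siRNA comparisons thus share the 3 Control siRNA libraries. Of the 31 core and 19S subunits, 5 rose and 7 fell, with a median of -0.01. Of the 15 other genes, 1 rose and 6 fell, with a median of -0.29. With a fold change over 1.5 also required, 0 rose and 3 fell (PSMB8, PSMB9 and PSME2), where 10.8% and 12.8% of all genes did.

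The largest rises with PKR siRNA 2 were in PSMB2, the assembly chaperone PSMD10 (gankyrin) and PSMB6. PSMB2 stood at 307, 306 and 333 TMM-normalized counts, a log2 fold change of 0.48 ± 0.07 (SE, n = 3 per group; limma, adjusted p = 9.45e-08). PSMD10 went from 136, 128 and 149 to 189, 183 and 161, a log2 fold change of 0.37 ± 0.10 (SE, n = 3 per group; limma, adjusted p = 0.00184). PSMB6 went from 169, 220.2 and 181 to 225, 242 and 244, a log2 fold change of 0.32 ± 0.09 (SE, n = 3 per group; limma, adjusted p = 0.00151). In all 3 genes the PKR siRNA 2 libraries lay above the controls, as in 7 of the 46 genes and 25.9% of all tested genes. PSMB5 had a log2 fold change of -0.18 (interval -0.35 to -0.01, adjusted p = 0.0812) and PSMB7 one of -0.12 (interval -0.29 to 0.04, adjusted p = 0.234). PSMD14 fell to 239.7, 229 and 235, by 0.22 ± 0.08 on the log2 scale (adjusted p = 0.0145), a call that was lost without Control siRNA replicate 3 (-0.17).

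The immunoproteasome genes held the largest falls. PSMB8, which replaces PSMB5, stood at 60.6, 69.8 and 60.7 TMM-normalized counts in Control siRNA libraries, 43.3, 44.4 and 53.1 in PKR siRNA 1 libraries and 25.9, 27.9 and 16.9 in PKR siRNA 2 libraries. Neither siRNA group overlapped the controls, and the PKR siRNA 2 values were the lowest. The log2 fold change with PKR siRNA 2 was -1.42 ± 0.19 (SE, n = 3 per group; limma, adjusted p = 7.44e-10). PSMB9, which replaces PSMB6, stood at 32.9, 22.6 and 32.2 with Control siRNA and at 14.9, 24.7 and 6.58 with PKR siRNA 2, where 1 library reached into the control range. Its log2 fold change was -1.03 ± 0.28 (SE, n = 3 per group; limma, adjusted p = 0.00162). Without PKR siRNA 2 replicate 3, the lowest library, it was -0.56 and no longer passed. PSMB10, which replaces PSMB7, went from 29.8, 35.5 and 32.2 to 19.9, 29.0 and 28.2, and the difference of -0.34 did not pass (interval -0.76 to 0.07, adjusted p = 0.18). These are small counts: PSMB8 had 59 to 65 reads per Control siRNA library and 18 to 26 per PKR siRNA 2 library, and PSMB9 had 21 to 34 and 7 to 23.

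PSMB8 and PSMB9 lie close to each other, but not side by side, in the MHC class II region. They are at chr6:32840717-32844935 (minus strand) and chr6:32854161-32859851 (plus strand, hg38). The tables also list both on 7 alternate contigs of the region, and how reads shared by these copies were counted is not given in the sources used here. PSMB8-AS1 covers 12.7% of PSMB8 on the opposite strand. Of the same interferon-linked group, PSME2 stood at 88.5, 79.3 and 84.6 TMM-normalized counts with PKR siRNA 2, a log2 fold change of -0.76 ± 0.12 (SE, n = 3 per group; limma, adjusted p = 7.31e-08), and all 3 libraries lay below the controls. Its partner PSME1 had log2 fold changes of -0.23 and -0.21 in the 2 comparisons (adjusted p = 0.142 and 0.192). PSME3, which forms the nuclear activator ring, fell by 0.35 with PKR siRNA 2 (adjusted p = 4.10e-04), and PSMD5 fell by 0.56 (adjusted p = 1.78e-04).

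**Figure D3:**
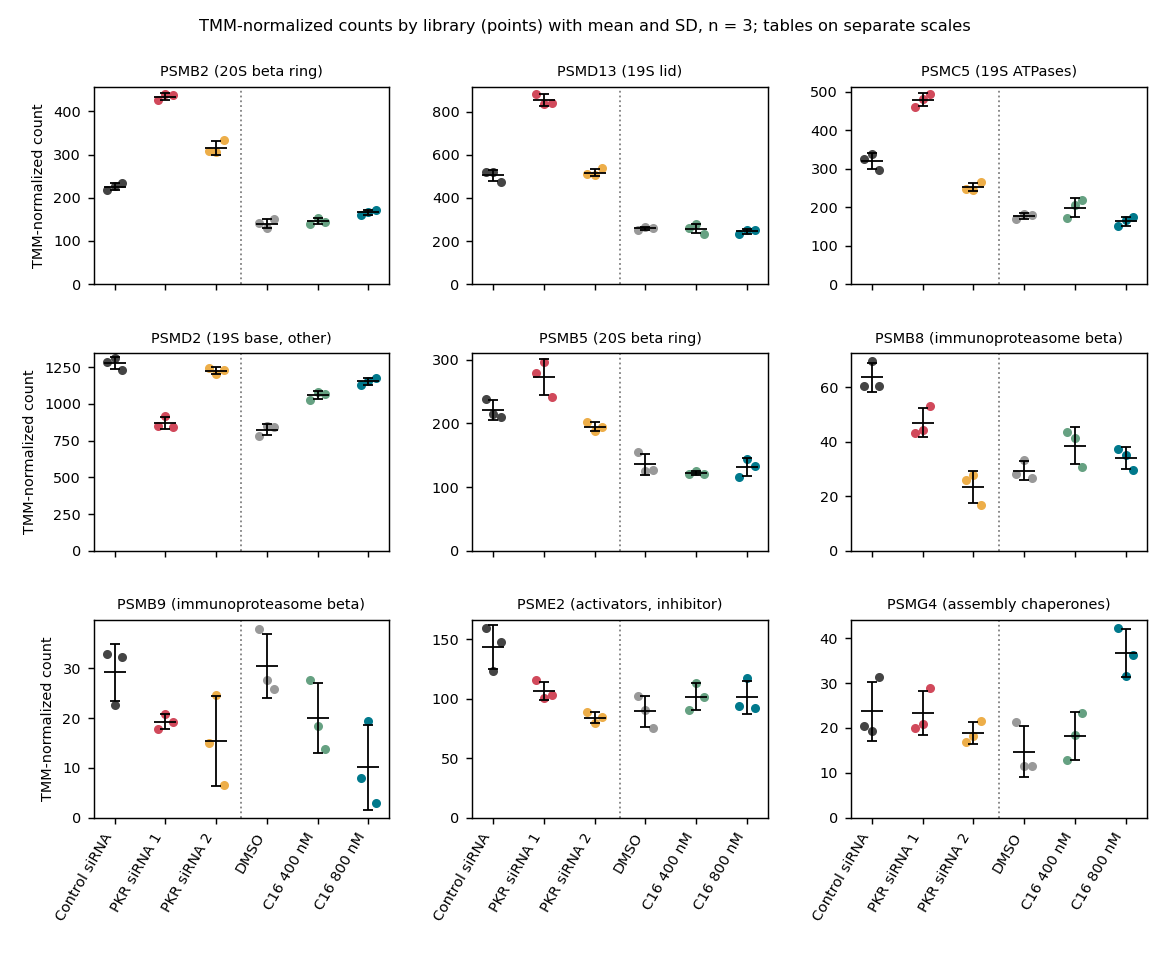
TMM-normalized counts of 9 named genes in each library (points), with the group mean and SD (bars, n = 3), for the siRNA groups left and the C16 groups right of the dotted line, which are on separate scales. PSMB2 rises with both siRNAs, PSMD13 rises with PKR siRNA 1, PSMC5 lies above the controls with PKR siRNA 1 and below them with PKR siRNA 2, and PSMD2 falls with PKR siRNA 1 and rises with C16.

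The difference between the siRNAs was tested directly. In PKR siRNA 2 against PKR siRNA 1, 32 of the 46 genes were lower and 3 higher, against 29.3% and 27.7% of all tested genes, with a median of -0.38 (all genes -0.01). Of the 14 core subunits 12 were lower and 0 higher, the exceptions being PSMA6 and PSMB6, with log2 differences from -0.85 to -0.10. Of the 17 genes of the 19S particle 14 were lower and 2, PSMD2 and PSMD6, were higher. Past 1.5-fold, 11 were lower and 0 higher (15.3% and 16.4% of all genes). In 6 of the 46 genes PKR siRNA 1 was called above and PKR siRNA 2 below Control siRNA, with the siRNAs also called different from each other, and in 0 the reverse, where 3.96% of all genes had the former pattern and 8.56% either one. PSMC5, an ATPase of the base, stood at 324, 337 and 296 TMM-normalized counts in Control siRNA, 461, 482 and 494 in PKR siRNA 1 and 247, 244 and 264 in PKR siRNA 2 libraries. The 3 groups did not overlap, and the 2 siRNA groups differed by -0.92 ± 0.07 (SE, n = 3 per group; limma, adjusted p = 9.26e-19). FTSJ3 covers 6.6% of PSMC5 on the other strand. The lid subunit PSMD12 had the largest difference among the 31 core and 19S subunits, -0.94 ± 0.10 (adjusted p = 3.49e-13).

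Among the catalytic genes, PKR siRNA 2 was lower than PKR siRNA 1 for PSMB5 by 0.48, for PSMB7 by 0.45, for PSMB8 by 0.99 and for PSMD14 by 0.64 on the log2 scale (adjusted p = 1.90e-06, 3.53e-06, 4.94e-06 and 3.75e-11). PSMB6 differed by -0.10 (interval -0.27 to 0.07, adjusted p = 0.346) and PSMB9 by -0.48 (interval -1.03 to 0.08, adjusted p = 0.146). The PSMB9 difference rested on single libraries: it was -0.88 and passed the test without PKR siRNA 2 replicate 2, and was -0.0042 without PKR siRNA 2 replicate 3. PSMB10 was lower by 0.54 (adjusted p = 0.0241), a call lost without PKR siRNA 1 replicate 1 (-0.40), PKR siRNA 1 replicate 2 (-0.53) or PKR siRNA 2 replicate 1 (-0.37). The count of 3 higher genes fell to 1 without PKR siRNA 1 replicate 2 or PKR siRNA 2 replicate 1.

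**Figure D4:**
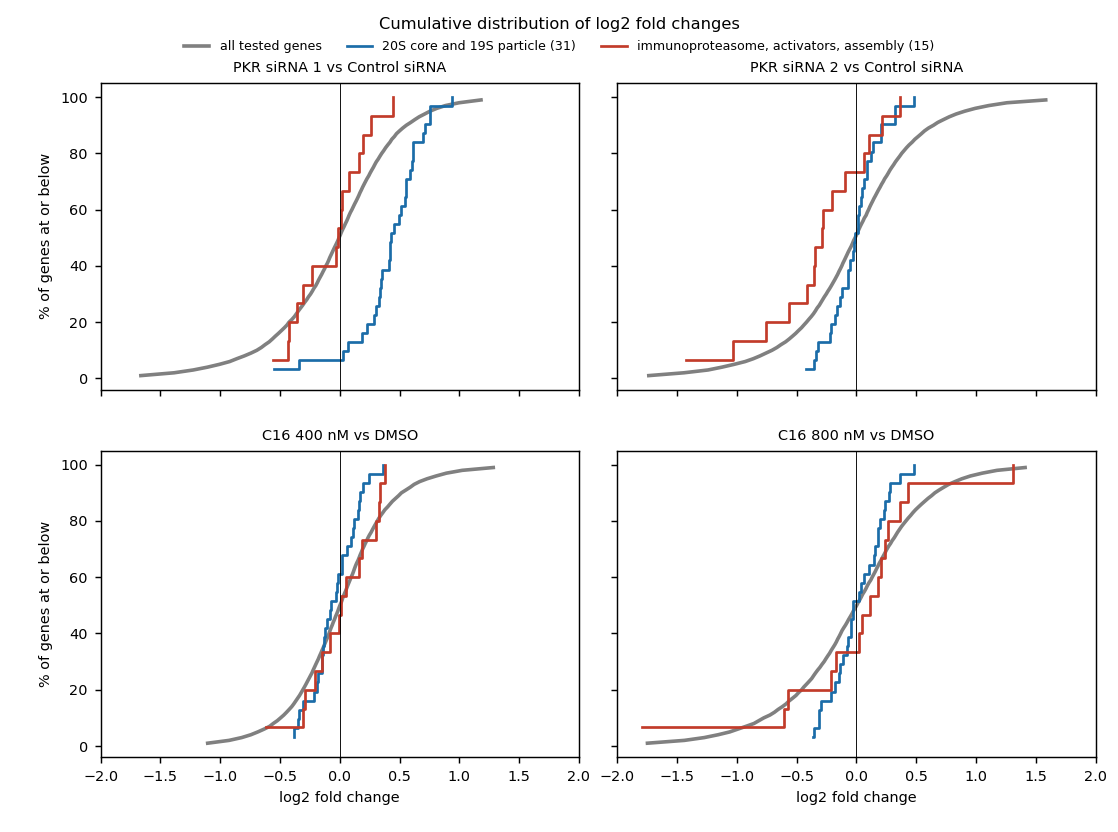
Cumulative share of genes (vertical axis, %) at or below each log2 fold change (horizontal axis) in the 4 comparisons with a control group, for all tested genes (grey), the 31 core and 19S subunits (blue) and the 15 other genes (red). The blue line is shifted to the right of the grey with PKR siRNA 1 (median 0.43) and lies near it with PKR siRNA 2 (median -0.01) and both C16 doses (medians -0.07 and -0.03).

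The summed share of the reads was read as a description. The 46 genes took 0.990% ± 0.016 of the reads on genes in Control siRNA, 1.38% ± 0.017 in PKR siRNA 1 and 0.976% ± 0.016 in PKR siRNA 2 libraries (SD, n = 3). PKR siRNA 1 was thus 1.39 times the control, or 1.29 times without PSMC4, and PKR siRNA 2 was 0.99 times. By class, PKR siRNA 1 was 1.43 times Control siRNA for the 14 core subunits, 1.27 times for the 16 genes of the 19S particle without PSMC4 and 1.66 times for PSMC4. The immunoproteasome genes were at 0.85 times the control after PKR siRNA 1 and 0.52 times after PKR siRNA 2. In the C16 table the 46 genes took 0.878% ± 0.022 in DMSO, 0.882% ± 0.026 at 400 nM and 0.923% ± 0.016 at 800 nM (SD, n = 3).

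**Figure D5:**
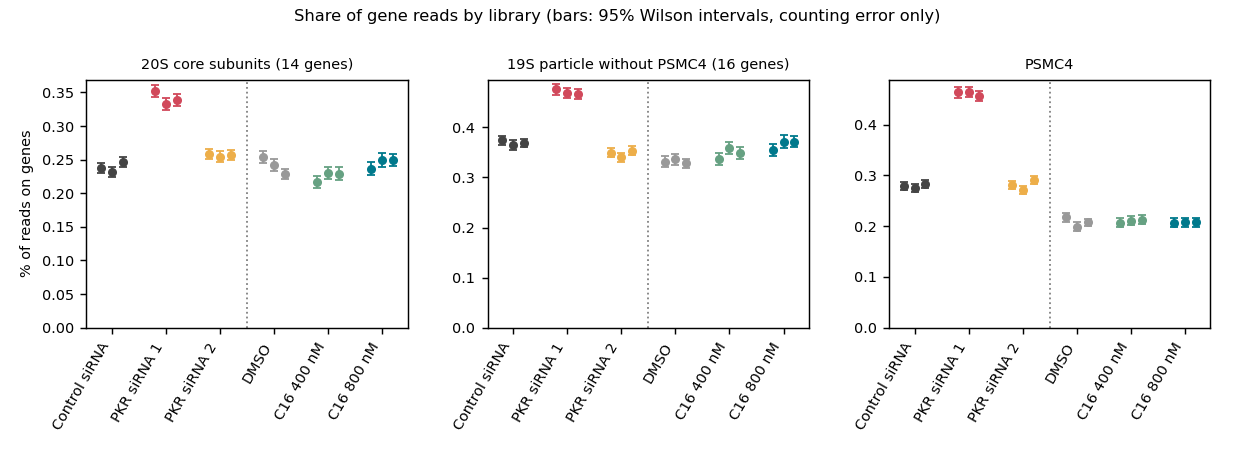
Percent of the reads on genes taken by the 14 core subunits, the 16 genes of the 19S particle without PSMC4, and PSMC4, in each of the 18 libraries (points, with 95% Wilson intervals that cover counting error only). The 3 PKR siRNA 1 libraries lie above all other libraries of their table in each panel, while the C16 and DMSO libraries span 0.216% to 0.253% for the core.

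The promoters of the genes were read from RefSeq (GRCh38.p14), where 40 of the 46 matched by symbol, each as 250 bases before and 50 after the RefSeq start, which can differ from the gene start of the deposited tables. PSMA7, PSMB1, PSMB6, PSMB7, PSMD4 and PSMG3 were not matched. A pair of motifs, chosen after the values were seen, was searched on both strands: the antioxidant response element TGACNNNGC, which NRF1 and its small MAF partners can bind, and the interferon-stimulated response element, read as GAAA, any 2 bases and GAAA again. In none of the 40 promoters did a match of one overlap a match of the other. The first was in 13 of 40 promoters (32.5%), against 13.6% of all 27305 RefSeq promoters and 15.6% of the 8200 promoters of tested genes. These windows before the RefSeq start are shown because PSMB3, PSMD3 and PSMD12 rose by 0.71, 0.75 and 0.61 with PKR siRNA 1, with the motif in capitals, at chr17:38752627-38752656 (plus strand), chr17:39980760-39980789 (plus strand) and chr17:67366723-67366752 (minus strand).
PSMB3: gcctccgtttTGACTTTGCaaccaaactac
PSMD3: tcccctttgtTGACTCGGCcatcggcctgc
PSMD12: agacaaaaccTGACGCTGCaggctggagtg

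In the deposited tables PSMD3 begins at position 39980768, so that by those coordinates its motif lies just after the start. The tables also list PSMB3 on 1 alternate contig. With PKR siRNA 1, 6 of the 13 genes with the antioxidant response element rose and 3 fell, with a median log2 fold change of 0.26. The 3 that fell, PSMD5, PSME2 and PSMG1, also hold the element before the RefSeq start. Of the 27 without it, 17 rose and 2 fell, with a median of 0.30. A match is a description of the letters and not evidence of binding.

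The interferon-stimulated response element was in 6 of 40 promoters (15.0%), against 3.65% of all promoters and 2.60% of those of tested genes. These were PSMA4, PSMB4, PSMB10, PSME1, PSME2 and PSMG4, and 3 of them hold the identical letters GAAAGCGAAA shortly before the RefSeq start, at chr16:67936852-67936881 (minus strand), chr14:24146619-24146648 (minus strand) and chr6:3258904-3258933 (plus strand). They are shown because genes of different roles, an immunoproteasome protease, an activator and a chaperone, share them.
PSMB10: gggtaaaggcGAAAGCGAAAgcaggaagta
PSME2: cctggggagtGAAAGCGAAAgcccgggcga
PSMG4: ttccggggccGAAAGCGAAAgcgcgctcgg

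With PKR siRNA 1, 2 of the 6 genes with this element rose and 1 fell, with a median log2 fold change of 0.09. Of the 34 without it, 21 rose and 4 fell, with a median of 0.34. With PKR siRNA 2, 1 of the 6 rose and 1 fell (median -0.25), and of the 34, 3 rose and 10 fell (median -0.04). PSMB8 and PSMB9 were among the 34 without it. The tables place the starts of PSMB10 and PSME2 on the minus strand at positions 67936877 and 24146646, so that by those coordinates both motifs lie just after the start. Of the 3 genes shown, PSME2 fell in each siRNA comparison, and PSMB10 passed the test in neither. PSME1 holds the same letters on the opposite strand, just after the RefSeq start, and also passed in neither. PSMG4, a chaperone of the alpha ring, gave log2 fold changes of -0.01 and -0.29 with the siRNAs (adjusted p = 0.973 and 0.362) and rose with C16 at 800 nM, as described next.

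The C16 comparisons asked whether blocking the kinase moves the same genes as removing its mRNA. At 400 nM, 2 of the 46 genes rose and 4 fell, where 14.6% and 11.9% of all 9963 tested genes did, with a median log2 fold change of -0.03 (all genes 0.00). Past 1.5-fold, 0 rose and 0 fell, against 7.08% and 5.45% of all genes. At 800 nM, 8 rose and 9 fell (22.3% and 22.6% of all genes), with a median of 0.03. When the values were scaled by library total instead of TMM, 11 rose and 7 fell at 800 nM. The 31 core and 19S subunits had medians of -0.07 and -0.03, with 1 higher and 4 lower at 400 nM and 4 higher and 6 lower at 800 nM. Both doses share the 3 DMSO libraries.

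PSMD2 was the core or 19S gene with the largest rise at both doses. It stood at 782, 851 and 843 TMM-normalized counts in DMSO, 1028, 1082 and 1068 at 400 nM and 1126, 1155 and 1177 at 800 nM, and at both doses all libraries lay above all DMSO libraries, as in 20.4% of all genes at 400 nM and 26.1% at 800 nM. The log2 fold changes were 0.36 ± 0.06 (SE, n = 3 per group; limma, adjusted p = 3.82e-06) and 0.48 ± 0.06 (adjusted p = 1.46e-09). The 2 doses differed by 0.12 (interval 0.00 to 0.24, adjusted p = 0.176). PSME4, which caps the core in place of the 19S particle, was the other gene that rose at 400 nM, by 0.32 ± 0.10 (adjusted p = 0.00819), and it rose by 0.36 at 800 nM (adjusted p = 0.00144). Without DMSO replicate 2 its call at 400 nM was lost (0.23), which left 1 gene that rose.

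The falls at 400 nM were in the alpha subunits PSMA6 and PSMA3, the lid subunit PSMD7 and the beta subunit PSMB1. PSMD7 went from 154, 128 and 128 to 93.6, 112 and 107 TMM-normalized counts, a log2 fold change of -0.39 ± 0.12 (SE, n = 3 per group; limma, adjusted p = 0.0102). PSMA6 and PSMA3 fell by 0.38 and 0.34 (adjusted p = 0.00675 and 0.0265). PSMA3 stood at 112, 97.1 and 102 in DMSO, 79.8, 78.4 and 86.2 at 400 nM and 116, 127 and 121 at 800 nM. At 800 nM its values lay above both other groups, higher than at 400 nM by 0.57 ± 0.12 (adjusted p = 5.36e-04) and differing from DMSO by 0.23 (adjusted p = 0.118). Without DMSO replicate 1 no gene fell at 400 nM, and PSMA3, PSMA6 and PSMD7 were at -0.29, -0.30 and -0.29. Without C16 400 nM replicate 1, a single gene fell and the 3 were at -0.33, -0.30 and -0.31. PSMA3 was also lost without C16 400 nM replicate 2 (-0.32).

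At 800 nM the largest changes lay outside the core and 19S particle. PSMG4 stood at 21.4, 11.4 and 11.4 TMM-normalized counts in DMSO, 12.8, 18.5 and 23.4 at 400 nM and 42.4, 31.7 and 36.3 at 800 nM, where all 3 libraries lay above all others of the table. Its log2 fold change at 800 nM was 1.31 ± 0.26 (SE, n = 3 per group; limma, adjusted p = 4.21e-05), and it was higher than at 400 nM by 1.00 ± 0.26 (adjusted p = 0.00585), a call lost without C16 400 nM replicate 1 (0.78). It was 1 of 46 that rose past 1.5-fold (11.6% of all genes), where PSMB9 and PSMG2 fell past it (14.1% of all genes), and it rests on 12 to 22 reads per DMSO library and 26 to 42 per 800 nM library. PSMG1, which chaperones the same ring, rose by 0.43 ± 0.15 (adjusted p = 0.0151), while its partner PSMG2 fell from 40.8, 47.6 and 39.6 to 25.2, 36.6 and 22.9, by 0.60 ± 0.20 (adjusted p = 0.0102). PSMG3, the partner of PSMG4, gave 0.02 (interval -0.30 to 0.34, adjusted p = 0.943). PSMG1 lost its call without DMSO replicate 1 (0.38), and PSMG2 without DMSO replicate 2 (-0.52) or C16 800 nM replicate 3 (-0.47).

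PSMB9 had the largest fall at 800 nM. It stood at 37.9, 27.6 and 25.9 TMM-normalized counts in DMSO, 27.7, 18.5 and 13.8 at 400 nM and 8.07, 19.5 and 2.86 at 800 nM. All 800 nM libraries lay below all DMSO libraries, though they were spread widely, with 3 to 16 reads each. The log2 fold change was -1.79 ± 0.34 (SE, n = 3 per group; limma, adjusted p = 1.27e-05). Without C16 800 nM replicate 3, the lowest library, it was -1.19 and still passed. At 400 nM it was -0.62 (interval -1.28 to 0.04, adjusted p = 0.174). The doses differed by -1.17 ± 0.34 (adjusted p = 0.0121), a call that was lost without C16 400 nM replicate 1 (-0.92) or C16 800 nM replicate 3 (-0.57), and the difference was -1.77 without C16 800 nM replicate 2. PSMB8 stood at 28.2, 33.3 and 26.7 in DMSO and 37.3, 35.3 and 29.6 at 800 nM, with log2 fold changes of 0.37 and 0.21 at the 2 doses (intervals -0.02 to 0.77 and -0.19 to 0.60, adjusted p = 0.171 and 0.422). PSMB10 gave 0.33 and 0.24 (adjusted p = 0.37 and 0.473). Neither PSMB8 nor PSMB10 differed past the test between the doses (-0.17 and -0.09, adjusted p = 0.637 and 0.856). PSME1 fell at 800 nM from 97.2, 85.7 and 87.6 to 59.5, 68.2 and 53.4, a log2 fold change of -0.57 ± 0.15 (SE, n = 3 per group; limma, adjusted p = 9.44e-04), while PSME2 gave 0.18 (adjusted p = 0.264).

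The 3 standard proteases parted at 800 nM. PSMB6 went from 130.2, 119 and 125 TMM-normalized counts to 97.8, 105 and 88.7, a log2 fold change of -0.36 ± 0.12 (SE, n = 3 per group; limma, adjusted p = 0.0116). PSMB7 went from 104, 90.5 and 108 to 113, 130.4 and 148, a log2 fold change of 0.36 ± 0.12 (SE, n = 3 per group; limma, adjusted p = 0.00973). PSMB5 overlapped DMSO, at 155, 126 and 126 against 116, 145 and 134, with -0.05 (interval -0.27 to 0.18, adjusted p = 0.769). The call on PSMB6 was lost without C16 800 nM replicate 3 (-0.30), and that on PSMB7 without DMSO replicate 2 (0.29) or C16 800 nM replicate 3 (0.27). At 400 nM, PSMB5, PSMB6 and PSMB7 gave -0.15, -0.14 and 0.24 (adjusted p = 0.358, 0.41 and 0.122), and between the doses they differed by 0.10, -0.22 and 0.12 (adjusted p = 0.604, 0.231 and 0.552). PSMD14 gave 0.11 at 400 nM, 0.20 at 800 nM and 0.09 between them (adjusted p = 0.423, 0.0859 and 0.602). The count of 8 genes that rose at 800 nM fell to 5 without DMSO replicate 1 and to 4 without C16 800 nM replicate 3.

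Between the doses, 3 of the 46 genes were higher at 800 nM than at 400 nM and 2 were lower, where 5.09% and 9.18% of all tested genes were. The higher genes were PSMG4, PSMA3 and the alpha subunit PSMA2 (0.29, adjusted p = 0.0107), and the lower ones PSMB9, with groups that overlapped, and PSMG2 (-0.60, adjusted p = 0.0319). The call on PSMA2 was lost without C16 400 nM replicate 1 (0.24) or C16 800 nM replicate 3 (0.27). That on PSMG2 was lost without C16 400 nM replicate 2 (-0.61), C16 400 nM replicate 3 (-0.49), C16 800 nM replicate 1 (-0.53) or C16 800 nM replicate 3 (-0.46). Past 1.5-fold, PSMG4 was higher and PSMB9 and PSMG2 lower (1.13% and 3.95% of all genes). The count of higher genes was 1 without C16 400 nM replicate 1, while that of lower genes dropped to 1 without C16 400 nM replicate 2, C16 400 nM replicate 3 or C16 800 nM replicate 1, and to 0 without C16 800 nM replicate 3.

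Proteasome parts and partners whose symbols do not begin with PSM were read from a list of 13 genes. With PKR siRNA 1, 7 rose and 2 fell (53.8% and 15.4%, against 21.1% and 23.9% of all tested genes), with a median of 0.38. With PKR siRNA 2, 1 rose and 3 fell (7.69% and 23.1%, against 22.1% and 25.2%), with a median of -0.09, so neither share was above that of all genes. The 1 rise was lost without Control siRNA replicate 2, PKR siRNA 2 replicate 1 or PKR siRNA 2 replicate 2. POMP, which matures the core, rose from 160.2, 159 and 164 to 293, 231 and 279.8 TMM-normalized counts with PKR siRNA 1, a log2 fold change of 0.72 ± 0.09 (SE, n = 3 per group; limma, adjusted p = 3.16e-10). UBE3C, a ubiquitin ligase on the proteasome, fell by 0.79 and 0.50 in the siRNA comparisons (adjusted p = 4.09e-15 and 3.48e-08). UCHL5, a deubiquitinase of the 19S particle, fell with PKR siRNA 2 from 122, 101 and 109 to 35.8, 46.1 and 35.7, by 1.48 on the log2 scale (adjusted p = 3.37e-16). It rose with C16 from 86.5, 52.4 and 64.0 to 129, 115 and 143 at 800 nM, by 0.95 (adjusted p = 7.63e-08). With C16, 4 of the 13 rose and 0 fell at 400 nM (30.8% and 0%, against 14.6% and 11.9% of all genes), and 6 rose and 1 fell at 800 nM (46.2% and 7.69%, against 22.3% and 22.6%). The 4 that rose became 2 without DMSO replicate 2 and 1 without C16 400 nM replicate 3, and the 1 that fell became 0 without DMSO replicate 3 or C16 800 nM replicate 1. ZFAND2A, a stress-induced proteasome adaptor, rose by 0.96 at 400 nM and 0.93 at 800 nM (adjusted p = 0.0104 and 0.00749), and AKIRIN2, which carries the proteasome into the nucleus, by 0.67 at 400 nM (adjusted p = 0.00136). The calls on ZFAND2A were lost without DMSO replicate 2 (0.70 at 400 nM and 0.67 at 800 nM), and that at 400 nM also without C16 400 nM replicate 3 (0.86).

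The list of the NRF1 pathway held 11 genes, of which 2 rose and 2 fell after PKR siRNA 1 (18.2% and 18.2%, against 21.1% and 23.9% of all genes) and 2 rose and 3 fell after PKR siRNA 2 (18.2% and 27.3%, against 22.1% and 25.2%), shares close to those of all genes. With C16, 3 rose and 0 fell at 400 nM (27.3% and 0%, against 14.6% and 11.9%), and 4 rose and 1 fell at 800 nM (36.4% and 9.09%, against 22.3% and 22.6%). The 3 falls with PKR siRNA 2 became 1 without Control siRNA replicate 2. At 800 nM the 4 rises became 2 without DMSO replicate 1, C16 800 nM replicate 1 or C16 800 nM replicate 2, and the 1 fall was lost without any library of the comparison except C16 800 nM replicate 2. NFE2L1 itself fell with PKR siRNA 1, where the core and 19S genes rose, from 911, 908 and 864 TMM-normalized counts to 589, 708 and 599, by 0.50 ± 0.06 on the log2 scale (adjusted p = 7.14e-12). With PKR siRNA 2 it stood at 1177, 1124 and 1147 and had risen by 0.36 (adjusted p = 1.43e-07). NFE2L1 protein is also controlled by cleavage and turnover, which were not measured here. Its small MAF partners split: MAFK fell by 1.41 with PKR siRNA 1 (adjusted p = 5.09e-25), MAFF fell by 1.32 with PKR siRNA 2 and rose by 1.37 with C16 at 800 nM (adjusted p = 2.62e-05 and 5.75e-04), and MAFG rose by 0.68 and 0.80 at the 2 doses (adjusted p = 1.26e-07 and 8.13e-10). SEL1L, of the membrane complex that moves NRF1 out of the endoplasmic reticulum, rose by 0.67 with PKR siRNA 2 (adjusted p = 1.99e-09), and FBXW7, a ligase for NRF1, by 0.72 at 400 nM C16 (adjusted p = 0.0443). The call on FBXW7 was lost when any library of the comparison other than C16 400 nM replicate 3 was left out (0.57 to 0.82).

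Genes that supply ubiquitin and bring substrates to the proteasome made up a list of 14. With PKR siRNA 1, 7 rose and 4 fell (50.0% and 28.6%, against 21.1% and 23.9% of all genes), and with PKR siRNA 2, 5 rose and 5 fell (35.7% and 35.7%, against 22.1% and 25.2%). The 4 falls with PKR siRNA 1 became 2 without Control siRNA replicate 3 or PKR siRNA 1 replicate 3. UFD1, which extracts substrates with the p97 ATPase, rose by 0.55 with PKR siRNA 1 (adjusted p = 2.00e-06). The E1 enzyme UBA6 fell by 0.48 with PKR siRNA 1 and rose by 0.39 with PKR siRNA 2 (adjusted p = 2.27e-04 and 0.00279). With C16, 4 fell and 0 rose by limma at each dose (28.6% and 0%), where 11.9% of all genes fell and 14.6% rose at 400 nM, and 22.6% and 22.3% at 800 nM. The 4 falls at 400 nM became 2 without DMSO replicate 2. The polyubiquitin gene UBB fell from 1013, 936 and 902 TMM-normalized counts in DMSO to 665, 670.0 and 722 at 400 nM and 555, 601 and 643 at 800 nM, by 0.47 and 0.67 (adjusted p = 1.20e-07 and 2.03e-12). UBB shares its ubiquitin-coding sequence with other genes of the list, so how reads were split among them is uncertain.

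Neighbours and regulators of the immunoproteasome genes formed a list of 9, of which 8 were tested and NLRC5 was too low. With PKR siRNA 1, 4 fell and 1 rose (50.0% and 12.5%, against 23.9% and 21.1% of all genes), with a median of -0.49. With PKR siRNA 2, 6 fell and 0 rose (75.0% and 0%, against 25.2% and 22.1%), with a median of -0.40. IRF1, a transcription factor induced by interferons, fell by 0.68 with PKR siRNA 1 and 1.09 with PKR siRNA 2 on the log2 scale (adjusted p = 0.00183 and 1.04e-06). The peptide transporter gene TAP2, which lies beside PSMB8, was the 1 gene that rose with PKR siRNA 1, by 0.25, and it fell by 0.64 with PKR siRNA 2 (adjusted p = 0.0183 and 8.49e-09). The rise was no longer called without Control siRNA replicate 1 (0.22), Control siRNA replicate 2 (0.22) or PKR siRNA 1 replicate 2 (0.23). TAPBP, which loads peptides onto MHC class I, fell by 1.13 with PKR siRNA 1 (adjusted p = 1.63e-21).

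In the C16 table, 4 of the same 8 genes rose and 1 fell at 400 nM (50.0% and 12.5%, against 14.6% and 11.9% of all genes), and 2 rose and 1 fell at 800 nM (against 22.3% and 22.6% of all genes). The 4 rises became 2 without DMSO replicate 1 or C16 400 nM replicate 1. TAPBP fell by 0.55 and 0.89 at the 2 doses (adjusted p = 9.19e-06 and 3.17e-11), while TAP2 rose by 0.61 at 800 nM (adjusted p = 7.20e-07) and STAT2 by 0.61 at 400 nM (adjusted p = 0.0193). The call on STAT2 was lost without DMSO replicate 1 (0.56), DMSO replicate 2 (0.59) or C16 400 nM replicate 1 (0.52).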

How the data were processed

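Poly(A) RNA of PANC-1 cells was sequenced on a MiSeq. According to the study's methods, TopHat (hg38) and featureCounts gave the gene counts, and the authors deposited TMM-normalized counts made with TCC, a normalized signal per gene, as 1 table per experiment. Versions, the gene annotation and the strand setting are not given in the sources used here. Every value in a library was a whole multiple of what 1 read was worth (100% within 0.01), which gave back the reads. In PKR siRNA 2 replicate 1 and C16 800 nM replicate 1 this was close to 1 and could not be checked.

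Genes with a mean of at least 10 were tested on log2(value + 1) with limma 3.58.1 (trend, R 4.3.3), two-sided, over the 9 libraries of a table. p-values were adjusted (Benjamini-Hochberg) over all 10593 or 9963 tested genes, and a call is an adjusted p under 0.05. Fold changes are on the log2(value + 1) scale and understate low genes. No single-gene permutation of 3 against 3 libraries can go below an exact p of 0.1. Levels per kilobase used the exons listed on primary chromosomes. Chi-square tests found every pair of libraries of a group more different than counting noise, so all were kept. Intervals are 95% and cover counting error or library spread only. Those of fold changes use a normal quantile rather than the t distribution of the limma test, which makes them somewhat narrower. The test was also run on simulated data with the same extra spread for every gene. That setting is simpler than these data, so it does not show how the test does on them.

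The genes, lists and tests were chosen with earlier results of these data known. Named by rule were the 3 largest called rises and falls in each comparison with a control, PSMB5 to PSMB10 and PSMD14 throughout, EIF2AK2, and the 2 largest calls per further list and comparison with a control. Some genes of these lists that the rule names are not reported here. PSMC4, PSMC5, PSMD3, PSMB3, PSMD12 and others were named after their values were seen. Alternatives were edgeR 4.0.16 and DESeq2 1.42.0 on the recovered reads, other scalings, filters and pseudocounts, a replicate block and leaving out each library.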

Additional observations from a re-analysis of the deposited data

Results flagged for a closer look

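The effects of the 2 siRNAs went in opposite called directions in 6 of the 46 genes, each higher with PKR siRNA 1 and lower with PKR siRNA 2 than with Control siRNA, and the direct comparison of the siRNAs passed the test in all 6. Of all 10593 tested genes, 3.96% were called in these same directions and 8.56% in opposite directions either way. The log2 difference, PKR siRNA 2 minus PKR siRNA 1, was -0.85 for the alpha subunit PSMA5 (limma, adjusted p = 2.91e-15), -0.92 for the ATPase PSMC5 (adjusted p = 9.26e-19) and -0.56 for the base scaffold PSMD1 (adjusted p = 4.54e-12). It was -0.77 for the ubiquitin receptor PSMD4 (adjusted p = 1.67e-17), -0.94 for the lid subunit PSMD12 (adjusted p = 3.49e-13) and -0.64 for the deubiquitinase PSMD14 (adjusted p = 3.75e-11). Both siRNAs were compared with the same Control siRNA libraries, and the cause of the difference was not tested.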

How the results depend on the processing

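The counts, medians and summed shares over the 46 genes, the counts of the further lists and the fold changes given in the text were recomputed under the alternatives that allowed it; genes under a mean of 30 gave no value with that minimum. Of 328 recomputed counts, medians and sums, 288 stayed within 1.5 times or 1 SD of the reported value and 40 moved. Of 512 recomputed counts of the further lists, 473 stayed within 1.5 times and 39 moved. Of 2089 recomputed fold changes of single genes, 1985 kept their direction and side of the threshold, 81 lost their call, 9 gained one and 14 reversed, all 14 without a call. The reversals on leaving out 1 library were of PSMB5 at 800 nM C16 against DMSO (range -0.118 to 0.055), PSMG3 (-0.165 to 0.182) and EIF2AK2 (-0.051 to 0.069) in the same comparison, PSMC6 (-0.082 to 0.131) and PSMG4 (-0.175 to 0.195) with PKR siRNA 1, and PSMB10 between the doses (-0.288 to 0.020). PSMG4 with PKR siRNA 1 became 0.017 with library-total scaling, and EIF2AK2 at 800 nM became -0.00407 with edgeR. The causes were not tested.

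Requiring a 1.5-fold change left 9 higher and 0 lower genes for PKR siRNA 1, 0 and 3 for PKR siRNA 2, and 0 and 11 between the siRNAs. With C16 it left 0 and 0 at 400 nM, 1 and 2 at 800 nM, and 1 and 2 between the doses. Scaling by library total, chosen after seeing the data, gave 3 lower genes and a median of 0.36 with PKR siRNA 1, and a median of -0.41 between the siRNAs. DESeq2 on the recovered reads gave 2 lower genes with PKR siRNA 1, 1 higher and 2 lower at 400 nM, 3 higher and 5 lower at 800 nM, and 0 lower between the doses. The edgeR quasi-likelihood test on the same reads called 2316 genes higher and 2554 lower over all genes with PKR siRNA 1, and 29 and 7 of the 46. The summed share with PKR siRNA 1 was 1.29 times the control without PSMC4, also chosen after seeing the data.

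Leaving out 1 library at a time gave 26 to 28 higher and 2 to 5 lower genes for PKR siRNA 1, 5 to 7 and 10 to 12 for PKR siRNA 2, 1 to 4 and 28 to 33 between the siRNAs, 1 to 2 and 0 to 4 at 400 nM, 4 to 7 and 6 to 10 at 800 nM, and 1 to 3 and 0 to 2 between the doses. The medians ranged from 0.31 to 0.36, -0.07 to -0.04, -0.39 to -0.36, -0.07 to -0.03, -0.01 to 0.04 and 0.00 to 0.08, and the summed shares from 1.38 to 1.40, 0.977 to 0.994, 0.992 to 1.02 and 1.04 to 1.07 times the control.

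Same-numbered libraries showed no shared deviation (correlations from -0.027 to 0.032 in the siRNA table and -0.049 to 0.017 in the C16 table). Whether the numbers pair the samples is not stated in the sources used here. These correlations do not decide it, since counting noise can hide a shared deviation. A replicate block gave 28 higher and 5 lower genes for PKR siRNA 1, 6 and 13 for PKR siRNA 2, 3 and 32 between the siRNAs, 2 and 4 at 400 nM, 7 and 9 at 800 nM, and 3 and 3 between the doses. Depth limits the immunoproteasome genes and PSMG4 most, with 3 to 65 reads per library.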
